A study of Xenopus laevis with 6 samples.

Results

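The subject is socs3, the gene of suppressor of cytokine signalling 3, in Xenopus laevis animal caps. This frog is tetraploid, and the gene has a copy on the long subgenome (socs3.L) and one on the short subgenome (socs3.S). The members are all probe sets whose only platform symbol is one of these names. Of 11303 genes named by a single symbol these are 2, each with 1 of the 32539 probe sets: Xl2.2213.1.S1_at for socs3.L and Xl2.26512.1.S1_at for socs3.S. Both copies were picked because earlier results on these arrays placed them among the largest decreases with ERK3 morpholinos in caps cultured alone, so their values in that comparison are given as a description and were not tested.

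An animal cap is prospective ectoderm of the blastula that, explanted and left alone, becomes epidermis. Activin turns the same tissue towards mesoderm and endoderm, and retinoic acid added to it favours pronephric fates. A morpholino is an antisense oligonucleotide that blocks translation or splicing of a chosen transcript, and ERK3, the product of mapk6, belongs to the atypical MAP kinases. The study asked what ERK3 contributes to epithelial architecture. Morpholinos went into the animal part of every cell of 4-cell embryos, explants were made at stage 9, and RNA was collected at stage 15. The 6 groups, each with 1 array from 1 experiment, were activin/RA caps with ERK3 MO1/2 (MO1 and MO2 together, 40 ng of each), activin/RA caps with ERK3 MO3 (80 ng), activin/RA caps with control MO (80 ng), and untreated caps with the same 3 injections. All 6 groups were therefore injected, and no uninjected caps were analysed here. With 1 array per group, p-values rest on spread among these 6 arrays, part of which may be technical, moderated by the other probe sets. In the ERK3 comparisons that spread lies between MO1/2 and MO3 within a culture. It holds no variation between control arrays.

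SOCS3 is an SH2-domain protein that holds cytokine signalling in check. Cytokines such as those of the interleukin-6 family bind receptors that share the gp130 subunit, JAK kinases on the receptor phosphorylate STAT3, and STAT3 switches on socs3 among its targets. The SOCS3 protein then binds the receptor and JAK, blocks the kinase, and brings in elongins and cullin 5, which mark bound proteins for degradation. It is known as an early response gene in mammals, since its transcript appears and decays quickly.

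The arrays had close signal distributions, with median log2 signals of 5.08 to 5.14. In untreated control caps 16 of 20 epidermal marker genes exceeded 5.10, the median over all log2 values, led by the keratin krt70.S with a log2 signal of 12.84, although the 2 copies of the epidermal regulator tp63 stayed between 1.65 and 2.99 on all arrays. Of 11 mesoderm markers 10 rose with activin/RA (limma adjusted p under 0.05), and 8 of 9 endoderm markers rose. In this comparison 9.6% of all probe sets were called higher and 10.9% lower. The epidermal markers did not fall as a set with activin/RA, as 5 of the 20 were called higher and 1 lower. Of 11 blood and myeloid markers, included because cytokine signalling is prominent in those cells, 3 exceeded that median in untreated control caps. The targeted transcript itself was not analysed here, as 0 probe sets are annotated to mapk6. In bulk caps, fewer cells of a type and less RNA per cell cannot be told apart.

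socs3 was highest by far in untreated control caps and lowest in activin/RA control caps, and the ERK3 morpholino arrays of both cultures lay in between. The log2 signal of socs3.L was 3.47 with MO1/2 and 5.17 with MO3 in activin/RA caps, against 2.60 in activin/RA control caps. In untreated caps socs3.L was at 3.99 with MO1/2 and 4.07 with MO3, against 7.23 with control MO. The ERK3 arrays were thus above their control in one culture and below it in the other. socs3.S had log2 signals of 4.07 with MO1/2 and 5.31 with MO3 in activin/RA caps, against 2.99 in activin/RA control caps. In untreated caps socs3.S stood at 3.76 with MO1/2 and 4.19 with MO3, against 7.58 with control MO. Both copies therefore had the same highest and the same lowest array. Both ERK3 arrays lay above the control array in activin/RA caps, as in 37.5% of all probe sets. In untreated caps both lay below it, as in 37.8% of all probe sets, and 8.86% of all showed both.

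**Figure D1:**
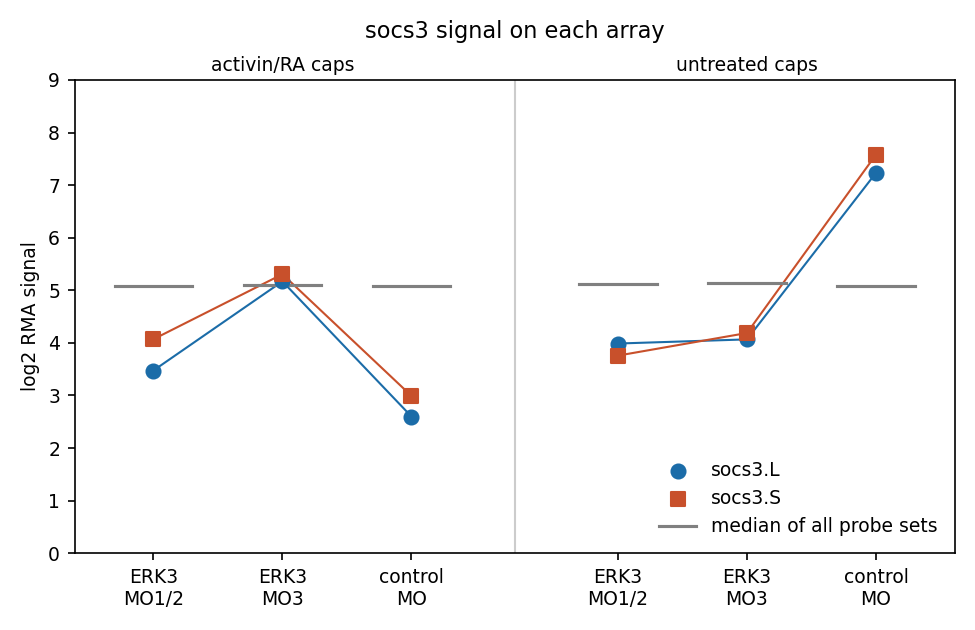
log2 RMA signal (vertical axis) of socs3.L (circles) and socs3.S (squares) on each of the 6 arrays, with activin/RA caps on the left and untreated caps on the right; grey bars are the median of all probe sets on that array. In activin/RA caps both copies are higher with MO1/2 and MO3 than with control MO (2.60 and 2.99), and in untreated caps both are lower than with control MO (7.23 and 7.58).

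Placed among all probe sets of the same array, socs3.L lay above 77.1% of them in untreated control caps and above 20.5% in activin/RA control caps. For socs3.S these shares were 81.0% and 26.2%. With MO1/2 and MO3 the shares for socs3.L were 32.6% and 50.9% in activin/RA caps and 38.0% and 38.6% in untreated caps. The corresponding shares for socs3.S were 38.7% and 52.6% in activin/RA caps, and 35.7% and 39.7% in untreated caps. RMA gives no detection call, so whether the transcript was present at the lowest signals was not tested. Folds taken against such a signal are therefore uncertain in size, and the direction of any error was not tested.

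Ordered from lowest to highest, socs3.L ran from activin/RA control through activin/RA MO1/2, untreated MO1/2, untreated MO3 and activin/RA MO3 to untreated control. The residual SD that limma gives for the fit of culture and knockdown, drawn from the differences between the reagents within each culture and moderated by the other probe sets, was 0.47 for socs3.L and 0.38 for socs3.S. The 2 untreated ERK3 arrays differed by 0.08 in socs3.L, less than that SD, and the step of 0.51 below them was about its size. For socs3.S the order had untreated MO1/2 below activin/RA MO1/2, with steps of 0.31 and 0.12 up to untreated MO3, both smaller than the SD. The step from activin/RA MO3 up to untreated control was 2.06 for socs3.L and 2.28 for socs3.S.

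The copies changed by close amounts. Their log2 signals correlated at r = 0.985 over the 6 arrays, a value given as a description over arrays of 1 experiment, and their profiles, each centred on its own mean, differed by a root mean square of 0.26. The widest gap between copies in any single difference was in the MO1/2 pair of cultures, where the log2 difference of activin/RA from untreated caps was -0.51 for socs3.L and 0.31 for socs3.S. Whether a probe set of one copy also captures the other's transcript was not tested.

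In activin/RA caps both ERK3 reagents went with higher socs3. The log2 difference from control MO was 0.88 with MO1/2 and 2.57 with MO3 for socs3.L, or 1.83-fold and 5.94-fold. For socs3.S it was 1.08 with MO1/2 and 2.31 with MO3, or 2.11-fold and 4.97-fold. With MO3 the socs3.L and socs3.S differences ranked 1 and 2 from the highest among 32539 probe sets, and with MO1/2 they ranked 423 and 169. The mean change over the reagents was 1.72 ± 0.58 (SE) for socs3.L, with a 95% interval of 0.37 to 3.08 before adjustment for the number of probe sets, and limma's adjusted p was 0.365. It was 1.70 ± 0.47 (SE) for socs3.S, with an interval of 0.61 to 2.79 and a limma adjusted p of 0.283. Both intervals rest on 2 residual degrees of freedom and on 5.37 lent by the other probe sets. Their spread is pooled over both cultures. The reagents differed by 1.70 for socs3.L and 1.24 for socs3.S in activin/RA caps, but by 0.08 and 0.43 in untreated caps. The untreated ERK3 arrays also took part in the choice of the gene, so both intervals may be too narrow for activin/RA caps. Neither member passed the threshold of 0.05, which 0.138% of all probe sets passed in this comparison (0.0123% higher and 0.126% lower). Leaving out the activin/RA MO1/2 array gave 2.57 with a limma adjusted p of 0.0423 for socs3.L, and 2.31 with 0.0853 for socs3.S. That fit sets 1 array against 1 and takes its spread from the untreated ERK3 arrays, which differed by 0.08 in socs3.L and took part in the choice of the gene, so its p does not test the activin/RA difference.

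In untreated caps, the comparison for which the copies were picked, socs3.L was 9.49-fold lower with MO1/2 and 8.99-fold lower with MO3 than with control MO. socs3.S was 14.2-fold lower with MO1/2 and 10.5-fold lower with MO3. The log2 differences were -3.25 and -3.17 for socs3.L and -3.82 and -3.39 for socs3.S. Counted from the lowest mean change, socs3.S stood at rank 5 and socs3.L at rank 11 of 32539 probe sets. Both ERK3 reagents were set against the same control array in each culture, so a high signal on the untreated control array or a low one on the activin/RA control array enters both differences of that culture.

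Other genes moved with these arrays. The summed intensity of 20 epidermal markers was 12588 with MO1/2 and 12817 with MO3 in activin/RA caps, against 19443 with control MO. In untreated caps it was 10796 and 12855 with the ERK3 reagents, against 20601 with control MO, and 11 of the 20 fell (limma adjusted p under 0.05), where 3.56% of all probe sets were called lower. Of the 20, 0 passed limma's test in activin/RA caps, with a median change of -0.69. A list of 19 transcripts known as maternal, or stored in the egg, was summed in the same way. The sum was 5524 and 4190.3 with the ERK3 reagents in activin/RA caps, against 3699 with control MO. Over the morpholino pairs, 3 of the 19 were called higher with activin/RA and 7 lower, beside 9.6% and 10.9% of all probe sets. Among the 3, vegt.L rose by 2.51 and vegt.S by 3.23 (limma adjusted p = 0.000775 and 0.000119). Whether the activin/RA sums reflect stored RNA was not tested. In untreated caps the maternal sum was 4770.5 and 4823, against 2387 with control MO, and 10 of the 19 rose while 0 fell, where 3.14% of all probe sets were called higher. For these 19, 0 passed in activin/RA caps, with a median change of 0.31. By value alone, the epidermal sum lay below control MO in both cultures, and socs3 below it in untreated caps and above it in activin/RA caps. The part of cell type or of maternal RNA in the socs3 values was not tested.

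The difference between the cultures was set out for each morpholino. With MO1/2, socs3.L was 0.51 lower on the log2 scale in activin/RA than in untreated caps, and socs3.S was 0.31 higher. With MO3, the difference of activin/RA from untreated caps was 1.10 for socs3.L and 1.12 for socs3.S. With control MO it was -4.64 for socs3.L and -4.59 for socs3.S, a 24.9-fold and a 24.1-fold lower signal in activin/RA caps. These differences rest on the untreated arrays that led to the choice of the gene and on 1 array each, so they were not tested.

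MO3 was also set against MO1/2. This difference was not itself used to choose the gene, but the untreated ERK3 arrays that enter it took part in the choice. The p-values below are therefore not free of that choice. In activin/RA caps MO3 exceeded MO1/2 by 1.70 for socs3.L and 1.24 for socs3.S, and in untreated caps by 0.08 and 0.43. All 4 differences were positive, though the 2 copies read the same pair of arrays in each culture and are not separate observations. Over both cultures the estimate was 0.89 ± 1.11 (SE) for socs3.L (95% interval -1.73 to 3.50, limma adjusted p = 0.971) and 0.83 ± 1.16 (SE) for socs3.S (-1.89 to 3.56, limma adjusted p = 0.975). In this comparison 0% of probe sets passed, with 1973 of 32539 at an unadjusted limma p under 0.05. The residual spread of that fit holds the culture difference of the control arrays, and leaving out one of the 2 controls (that of activin/RA or that of untreated caps) gave a limma adjusted p of 0.0279 or 0.0311 for socs3.S and of 0.0656 or 0.0688 for socs3.L, at the same estimates. In the fits with an ERK3 array left out, the culture difference of the control arrays also enters the estimate. Such estimates therefore do not show the reagent difference alone. Without the activin/RA MO3 array the estimates were -0.95 for socs3.L and -0.80 for socs3.S, although the untreated pair left there differed by 0.08 and 0.43. Without the untreated MO1/2 array they were 0.26 for socs3.L and -0.19 for socs3.S. Without the untreated MO3 array they grew to 2.73 and 2.46, and without the activin/RA MO1/2 array they were 1.51 and 1.86, and neither passed for either copy.

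The combination seen in socs3.S, at least 2-fold lower with both reagents in untreated caps and at least 2-fold higher with both in activin/RA caps, was found in 4 probe sets. They were 4 (0.485%) of the 825 probe sets (2.54% of all) that were at least 2-fold lower in untreated caps. socs3.L missed it because its MO1/2 difference in activin/RA caps was 1.83-fold. Over all probe sets 0.157% were at least 2-fold higher with both reagents in activin/RA caps. At 1.5-fold, a level that both copies of socs3 reached, 8 (0.97%) of the 825 were higher, beside 1.43% of all probe sets. The 4 probe sets at 2-fold were socs3.S, acod1lb.L and 2 with no symbol here. acod1lb.L had log2 signals of 8.56 and 8.80 in activin/RA caps with the ERK3 reagents, against 7.46 with control MO, and of 5.02 and 5.63 in untreated caps, against 7.27 with control MO. Of the same 825 probe sets, 39 (4.73%) were higher by any amount with both reagents in activin/RA caps and 674 (81.7%) were lower, among all probe sets 37.5% and 36.2%. Because socs3 was chosen for its untreated decrease, these counts only place it among probe sets chosen the same way.

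**Figure D2:**
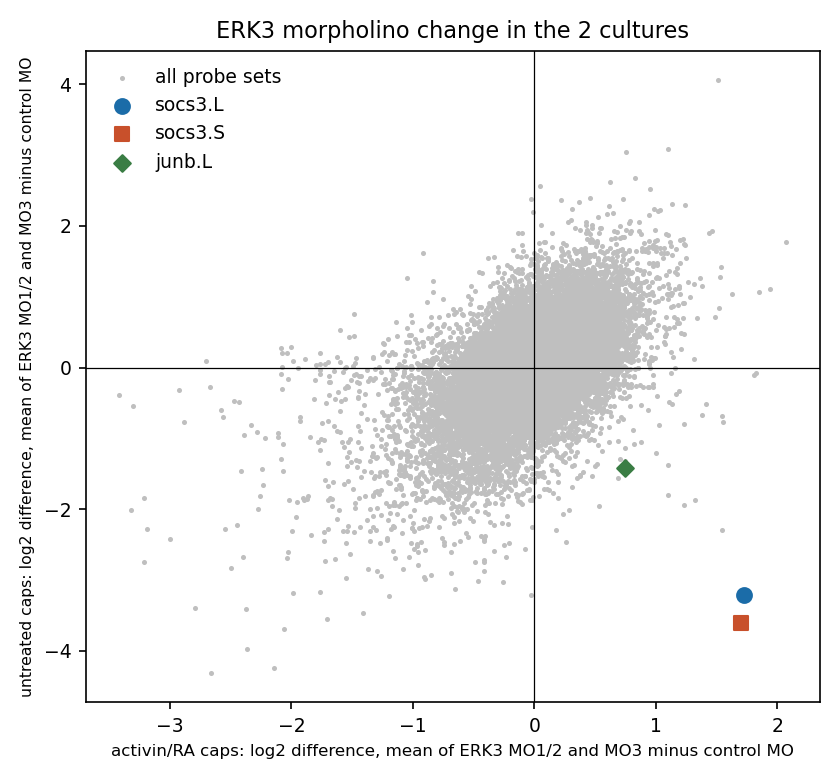
Each point is a probe set, placed by the log2 difference between the mean of the 2 ERK3 reagents and control MO in activin/RA caps (horizontal axis) and in untreated caps (vertical axis). socs3.L (1.72 and -3.21) and socs3.S (1.70 and -3.61) lie to the right of 0 and far below it, further out on both axes than junb.L (0.74 and -1.42).

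The SOCS proteins all carry an SH2 domain and a box that binds elongins, and 10 probe sets of 6 other family genes were measured. Their mean change with the ERK3 morpholinos ranged from -0.26 to 1.07 in activin/RA caps and from -0.66 to 0.75 in untreated caps. None of the 10 passed in either culture (smallest limma adjusted p of 0.224 in activin/RA caps and 0.0966 in untreated caps). With 0.138% and 6.70% of all probe sets called in these comparisons, 0 of 10 does not set the relatives apart from other genes. socs3l.S, whose name marks it as a relative of socs3, had log2 signals on its brightest probe set of 5.88 and 5.91 in activin/RA caps with the ERK3 reagents, against 6.01 with control MO. In untreated caps this probe set stood at 6.17 and 6.15, against 6.60 with control MO.

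The brighter probe set of socs1.S, an inhibitor that binds JAK kinases directly, had log2 signals of 4.61 and 4.59 in activin/RA caps with the ERK3 reagents, against 3.53 with control MO. In untreated caps it read 6.20 and 5.72, against 5.39 with control MO. Over the morpholino pairs this probe set fell with activin/RA (log2 change -1.53 ± 0.19 SE, limma adjusted p = 0.00244), while a second probe set of socs1.S stood at -0.02. One of 3 socs3l.S probe sets also fell with activin/RA (-0.86 ± 0.17 SE, limma adjusted p = 0.0146). These were 2 of the 10 probe sets, where 20.5% of all passed in this comparison. socs1.L, socs2.S, socs5.L and socs6.L had mean changes in untreated caps of -0.66, 0.06, 0.30 and 0.75 on their brightest probe sets, and none passed. No test compared socs3 with its relatives.

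**Figure D3:**
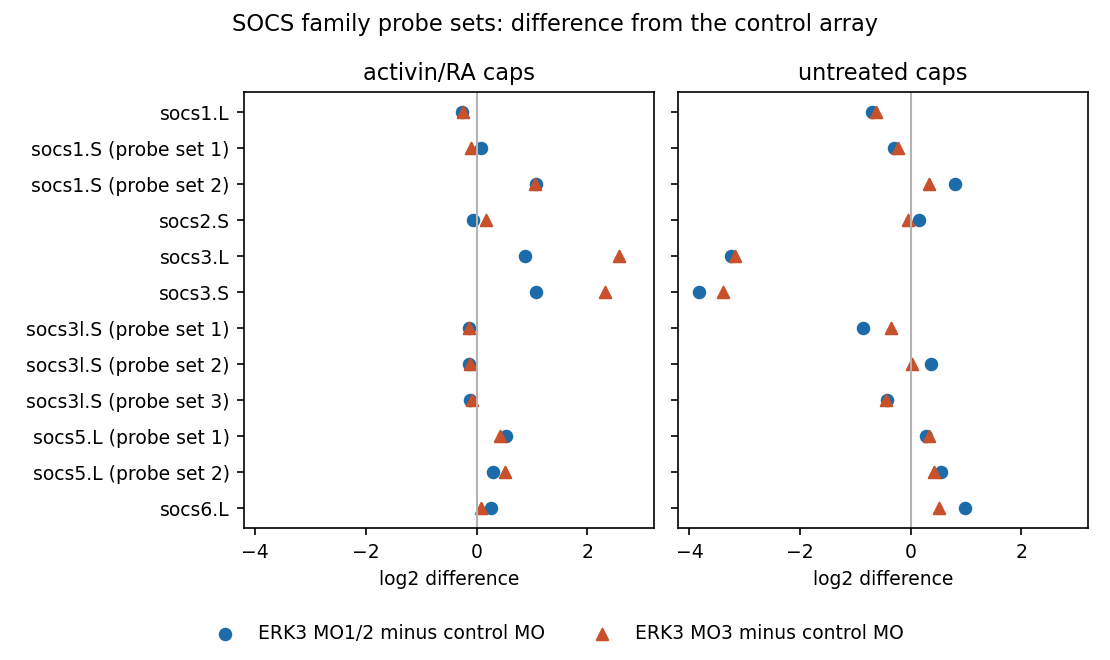
log2 difference from the control array (horizontal axis) with ERK3 MO1/2 (circles) and ERK3 MO3 (triangles) for every probe set of a SOCS family gene, in activin/RA caps (left) and untreated caps (right). The socs3 copies reach 2.57 and 2.31 with MO3 on the left and -3.25 and -3.82 with MO1/2 on the right, while the single-reagent differences of the other 10 probe sets lie between -0.26 and 1.08 on the left and between -0.86 and 0.99 on the right.

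The pathway around socs3 was described through a list of 74 gene names, of which 47 were measured, as 61 genes. Only 4 of 13 listed ligand names and 8 of 15 listed receptor names were measured, and interleukin-6 itself was not among them. The measured ligands and receptors were weak on these arrays: 1 of 6 ligand genes and 1 of 10 receptor genes exceeded 5.10 on any array. The receptor gene was il6st.L, which encodes gp130, with log2 signals of 5.62 and 5.51 in activin/RA caps with the ERK3 reagents, against 5.69 with control MO. In untreated caps il6st.L had 5.49 and 5.18, against 5.39 with control MO. The ligand lif.L, a cytokine acting through gp130, had 3.47 and 3.89 in activin/RA caps with the ERK3 reagents, against 3.06 with control MO, and 3.40 and 3.73 in untreated caps, against 3.54 with control MO. stat3.2.L, the measured copy of STAT3, lay between 4.45 and 5.01 on all 6 arrays and passed in neither ERK3 comparison (limma adjusted p = 0.918 in activin/RA caps and 0.367 in untreated caps).

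In activin/RA caps 0 of the 61 pathway genes passed for the ERK3 morpholinos in limma's test, where 0.138% of all probe sets passed. An unadjusted p under 0.05 was found for 13 of the 61 (21.3%), beside 3532 of 32539 probe sets (10.9%). Their median change was 0.06, beside 0.01 over all probe sets. The kinase genes had a median of 0.65, with jak1.S at 6.47 and 6.20 with the ERK3 reagents, against 5.66 with control MO. jak2.L was at 6.85 and 6.93, against 6.22 with control MO. tyk2.L was at 9.04 and 9.40, against 8.60 with control MO. For these 3 of the 4 kinase genes both reagents lay above the control array, as they did for 37.5% of all probe sets. The limma adjusted p of the 3 lay between 0.286 and 0.354. The other, jak3.L, had differences from control of -0.36 with MO1/2 and 0.24 with MO3. Other probe sets went as low as a mean change of 0.17 for jak1.S and 0.0081 for jak2.L.

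In untreated caps 5 pathway genes rose and 2 fell with the ERK3 morpholinos, 11.5% of 61, where 6.70% of all probe sets passed (3.14% higher and 3.56% lower). The median change was 0.05, beside 0.01 over all probe sets. The kinase gene jak1.S rose by 0.98 ± 0.21 (SE, limma adjusted p = 0.0409), though its 4 probe sets ranged from 0.05 to 0.98. pias4.S, the gene of a SUMO ligase that restrains STAT proteins, rose by 1.61 ± 0.24 (SE, limma adjusted p = 0.0196). The other passing genes are known STAT3 targets in mammals. The repressor gene bcl6.L (1.77), the kinase gene pim3.L (1.35) and myc.L (0.85) rose, and the AP-1 gene junb.L (-1.42) and the cyclin gene ccnd1.S (-1.29) fell, with limma adjusted p-values between 0.0155 and 0.0385. The STAT3 targets thus moved both ways, with a median of -0.51 over 18 genes. The count of 7 dropped to 2 without the untreated MO1/2 array and to 4 without either of the activin/RA ERK3 arrays.

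In both copies of junb, as in socs3, the ERK3 arrays lay above control MO in activin/RA caps and below it in untreated caps. junb.L, which passed downwards in untreated caps, had 8.18 and 8.63 in activin/RA caps with the ERK3 reagents, against 7.66 with control MO. In untreated caps junb.L had 7.23 and 7.19, against 8.63 with control MO. The brighter of 2 probe sets of junb.S had 5.63 and 5.98 in activin/RA caps, against 4.78 with control MO, and 5.25 and 4.89 in untreated caps, against 5.88 with control MO. The other junb.S probe set did not share this, with mean changes of 0.45 in activin/RA caps and 0.13 in untreated caps. Of the 61 genes 9 (14.8%) were higher with both reagents in activin/RA caps and lower with both in untreated caps, by any amount, beside 8.86% of all probe sets. Besides junb these were lep.S, pias3.L, ptpn2.L, elob.L, the C/EBP factor genes cebpb.L and cebpd.L and the interferon regulatory factor gene irf1.S. Some differences were close to none: with MO1/2, -0.01 for cebpb.L in untreated caps, and 0.05 for cebpd.L and 0.09 for irf1.S in activin/RA caps. The other copies cebpd.S and irf1.L did not share the arrangement, with MO1/2 differences of -0.44 and -0.28 in activin/RA caps. cebpb.L was at 6.11 and 6.28 in activin/RA caps, against 5.36 with control MO, and at 6.55 and 6.07 in untreated caps, against 6.57 with control MO. The STAT3 target pim3.L did not share this arrangement: it was at 8.61 and 8.38 in activin/RA caps, against 7.33 with control MO, and at 9.44 and 9.33 in untreated caps, against 8.04 with control MO.

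Activin/RA lowered 8 of the 61 pathway genes and raised 1 over the morpholino pairs, 14.8% of the list, where 20.5% of all probe sets passed (9.6% higher and 10.9% lower). The median change was -0.11, beside -0.01 over all probe sets. Lower were the prolactin gene prl.1.L (-1.19), the growth hormone receptor gene ghr.L (-0.55), the kinase gene jak3.L (-0.80), socs1.S, both copies of bcl6 (-1.14 for bcl6.L and -1.01 for bcl6.S) and both of pim3 (-0.83 for pim3.L and -0.59 for pim3.S). The elongin gene elob.L, whose protein links SOCS proteins to the ubiquitin ligase, rose by 0.57. Their limma adjusted p-values lay between 0.00244 and 0.0276. The log2 signals of ghr.L, jak3.L and bcl6.S stayed below 5.10, the median over all values, on all 6 arrays. The count of 9 was 4 without either MO1/2 array and 5 without either MO3 array, and it was 19 when the activin/RA control was left out and 18 when the untreated control was. MO3 against MO1/2 gave 0 of 61 in limma's test, with 3 at an unadjusted p under 0.05, and 2 without either control array.

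The genes most like socs3 over the 6 arrays were ranked by the root mean square difference between centred profiles, among 7787 genes with an informative symbol and a log2 signal over 5.10 on 1 array or more. The neuronal tubulin gene tubb3.L came first, at 0.64, where the copies of socs3 differed from each other by 0.26 and the median over the ranked genes was 1.48. tubb3.L had log2 signals of 3.35 and 4.79 in activin/RA caps with the ERK3 reagents, against 3.54 with control MO. In untreated caps tubb3.L had 4.47 and 4.84, against 6.60 with control MO. Next came rarres1.L (0.83), the homeobox gene nkx2-3.L (0.87), the serine dehydratase gene sds.L (0.89), the GATA factor gene gata5.S (0.90), the T-box gene tbx3.S (0.91), the stomatin gene stom.L (0.91), the basic helix-loop-helix repressor gene bhlhe40.L (0.92), sds.S (0.94) and the autophagy gene gabarapl1.S (0.95).

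All 10 of these genes were highest in untreated control caps and lower there with both ERK3 reagents, as their selection favours. In activin/RA caps 2 of the 10, sds.L and bhlhe40.L, were higher with both reagents than with control MO and lowest with activin/RA control MO. bhlhe40.L was at 5.86 and 6.95 in activin/RA caps, against 5.53 with control MO, and at 6.01 and 6.40 in untreated caps, against 7.26 with control MO. sds.L was at 5.04 and 5.98 in activin/RA caps, against 4.82 with control MO, and at 6.04 and 6.73 in untreated caps, against 7.42 with control MO. In both genes, as in socs3, MO3 lay above MO1/2 in each culture. The rest of the 10 had this order too, except rarres1.L and nkx2-3.L, where MO3 lay below MO1/2 in untreated caps. The ranking used these same arrays, so such likeness is favoured by the selection.

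**Figure D4:**
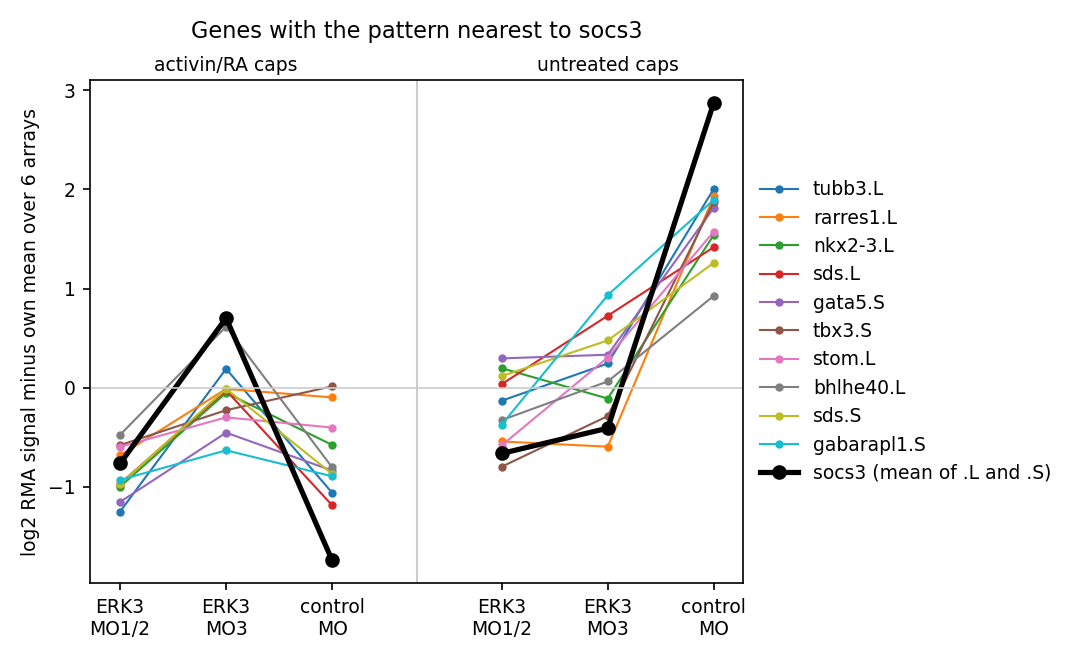
log2 RMA signal of the 10 genes nearest to socs3 in pattern, each minus its own mean over the 6 arrays (vertical axis), on each array, with the mean socs3 profile in black. All 10 genes peak in untreated control caps, and 2 of them (sds.L and bhlhe40.L) have their lowest value, as socs3 does, in activin/RA control caps.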

How the data were processed

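RNA from 6 groups of animal caps (250 ng per array) was hybridized to GeneChip Xenopus laevis Genome 2.0 arrays and the images were analysed with GeneChip Operating Software 1.4, per the labels. Per the labels, the authors normalized the arrays with RMA in Expression Console. The deposited table holds each intensity on a linear scale, so log2 was taken, with nothing added. Controls (96 of 32635 rows) were dropped, and 32539 probe sets were tested without a filter on level. The platform annotation gives 15495 probe sets 1 symbol, 279 more than 1 and 16765 no symbol. Identifiers tied 15384 of the first to RefSeq genes, which updated 2 symbols.

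limma 3.58.1 (R 4.3.3; lmFit, eBayes with an intensity trend) was fitted to all probe sets and checked on simulated arrays. Benjamini-Hochberg adjustment ran over the whole table, with calls at an adjusted p under 0.05. ERK3 effects came from a fit of culture, knockdown and their interaction, where the 2 reagents stood in for replicates and each lone control array was assumed to vary like the others. Culture and MO3 against MO1/2 came from a fit of culture and morpholino. Each left 2 residual degrees of freedom. The number of arrays limits the precision. A gene stood for its probe set with the highest mean. In the ranking by pattern the closest probe set was taken instead, which concerned rarres1.L (2 probe sets) and sds.S (3 probe sets). Alternatives were a filter on low signal, no trend, quantile normalization, the mean of a gene's probe sets and each array left out.

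The members and gene lists were chosen with earlier results of these data known. Named are the member probe sets, all SOCS family genes, pathway genes that passed (at most 4 per role and comparison), and the 10 genes nearest in pattern. myc.L and the genes given for their arrangement of arrays (junb.S, lep.S, pias3.L, ptpn2.L, cebpb.L, cebpd.L, cebpd.S, irf1.L, irf1.S, acod1lb.L) or role (il6st.L, lif.L, stat3.2.L, jak2.L, tyk2.L) were named after their values were seen. So were vegt.L and vegt.S of the maternal list.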

Additional observations from a re-analysis of the deposited data

Results flagged for a closer look

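The ERK3 morpholino change of both socs3 copies had opposite signs in the 2 cultures. socs3.L had a mean log2 change of 1.72 in activin/RA caps and of -3.21 in untreated caps. socs3.S had 1.70 in activin/RA caps and -3.61 in untreated caps. Both reagents moved each copy up in activin/RA caps and down in untreated caps. The difference between the cultures was not tested, because the untreated values led to the choice of the gene, and the activin/RA changes did not pass on their own (limma adjusted p = 0.365 and 0.283).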

How the results depend on the processing

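The changes of both socs3 copies in activin/RA caps kept their direction and did not pass with a filter on low signal, no trend or quantile normalization. With each array left out (the activin/RA control cannot be) they ranged from 0.88 to 2.57 for socs3.L and from 1.08 to 2.31 for socs3.S. MO3 against MO1/2 ranged from -0.95 to 2.73 for socs3.L and from -0.80 to 2.46 for socs3.S. In the fits at these ends an ERK3 array was missing, so the culture difference of the control arrays entered the estimate. The untreated changes moved by no more than the spread between the reagents under quantile normalization. Taking either reagent alone could not move them further than that, since the mean lies midway between the reagents, so it is no check. Each copy has 1 probe set, so no other could stand for it. For ERK3 in activin/RA caps 45 probe sets passed, against 0 with a filter on low signal and 16 with no trend, and 0 to 45 with an array left out. For the filter, the smaller number of probe sets and the refitted trend both differ, and the cause was not tested. With an array left out, the calls ranged from 322 to 2482 around 2180 for ERK3 in untreated caps, from 1859 to 10636 around 6668 for activin/RA and from 0 to 778 around 0 for MO3 against MO1/2. Pathway genes ranged from 2 to 8, from 4 to 19 and from 0 to 2 in these comparisons, and were 0 throughout for ERK3 in activin/RA caps. No analysis paired by replicate was possible because each group has 1 array. This concerns pairing by replicate alone, since the culture comparison pairs arrays by morpholino. Signals near the lower end of the RMA scale limit what can be said of socs3 in activin/RA control caps.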

Other observations

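A list of 28 early response genes was written after the socs3 and junb values had been seen, so it supports nothing on its own. Of 26 genes measured, 17 (65.4%) were higher with both ERK3 reagents in activin/RA caps, beside 37.5% of all probe sets. In untreated caps 14 (53.8%) were lower with both, beside 37.8% of all probe sets, and 8 (30.8%) showed both, beside 8.86%. Some differences among the 8 were close to none. With MO3 in activin/RA caps they were 0.04 for gadd45g.L and 0.05 for gadd45g.S. With MO1/2 in untreated caps they were -0.09 for gadd45a.S and for jund.S. Copies of one gene were counted separately. Over the 26 genes the median changes were 0.24 in activin/RA caps and -0.20 in untreated caps. In activin/RA caps 0 passed limma's test. The AP-1 gene fos.S had log2 signals of 8.56 and 8.33 with the ERK3 reagents in activin/RA caps, against 7.22 with control MO, and of 8.96 and 8.40 in untreated caps, against 9.48 with control MO. The stress-induced factor gene atf3.L had 7.23 and 7.42 in activin/RA caps, against 6.19 with control MO, and 7.18 and 6.55 in untreated caps, against 7.37 with control MO. In untreated caps 2 genes (7.69%) passed, close to the 6.70% of all probe sets: zfp36.L, which encodes a protein that destabilises mRNA, at -1.47 (limma adjusted p = 0.0267) and ccn1.S at 1.20 (limma adjusted p = 0.0483), in opposite directions.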
